A study of Homo sapiens with 21 samples.

Results

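This account compares SH-SY5Y cells exposed to perfluorooctanesulfonic acid (PFOS) with their controls, gene by gene. It takes the 3 PFOS libraries and the 3 Control libraries of a series of 21, chosen by their treatment label, and all 24879 genes that passed a filter on low counts, out of 62656 in the count table. SH-SY5Y is a human neuroblastoma line, here wild type and differentiated for 11 days into neuron-like cells. The PFOS cells then received 30 µM PFOS for 24 h in a solution with 1% methanol, in triplicate. The labels give the controls no treatment and do not state their methanol content, so that PFOS and methanol cannot be told apart if the controls lacked it. The PFOA, PFDS, 8:2 FTS, PFDA and 8:2 FTOH groups used further on had the same dose, time, methanol and number of libraries. The study asked how such fluorinated compounds affect neuronal cells. The labels do not call the 3 libraries of a group separate cultures. All p-values therefore rest on the variation among these libraries, which may be only technical.

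PFOS is a fluorinated surfactant that resists breakdown and binds serum proteins. In neurons, the immediate early genes, among them FOS and EGR1, are switched on within minutes by calcium entry and by kinase signalling and encode transcription factors. The integrated stress response works through ATF4, a transcription factor that raises amino acid transport and synthesis when cells lack amino acids or meet other stresses. SLC7A11 is a target of that response. It encodes the cystine carrier of system xc-, which imports cystine for glutathione in exchange for glutamate.

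The promoters of both called immediate early genes are shown because these genes had the smallest adjusted p-values, and those of ASNS and HSPA8 because they are members of gene groups described below. Each run holds the 250 bases before the start site in RefSeq (GRCh38.p14), 5′ to 3′ on the gene's strand. Capitals mark matches to the core of the cAMP response element, or CRE core (TGACGT), to the CArG box bound by serum response factor, to the ATF4 composite element (TGATGNAA) or to a heat shock element (GAANNTTC), searched on both strands.
FOS, chr14:75278578-75278827, plus strand: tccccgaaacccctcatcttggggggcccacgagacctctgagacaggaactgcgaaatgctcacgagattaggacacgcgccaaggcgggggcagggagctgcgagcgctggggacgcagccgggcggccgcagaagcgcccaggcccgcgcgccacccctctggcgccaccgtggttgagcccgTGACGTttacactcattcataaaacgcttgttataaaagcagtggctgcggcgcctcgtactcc
EGR1, chr5:138465229-138465478, plus strand: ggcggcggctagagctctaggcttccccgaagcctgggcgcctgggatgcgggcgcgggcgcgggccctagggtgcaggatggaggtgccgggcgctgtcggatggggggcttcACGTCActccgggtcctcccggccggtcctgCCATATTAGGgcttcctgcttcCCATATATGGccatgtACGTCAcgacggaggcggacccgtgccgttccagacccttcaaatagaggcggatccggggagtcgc
ASNS, chr7:97872409-97872658, minus strand: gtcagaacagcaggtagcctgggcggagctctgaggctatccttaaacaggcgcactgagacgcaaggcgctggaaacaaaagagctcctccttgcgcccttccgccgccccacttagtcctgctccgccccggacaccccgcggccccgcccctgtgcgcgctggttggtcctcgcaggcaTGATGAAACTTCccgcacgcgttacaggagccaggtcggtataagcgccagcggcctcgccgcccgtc
HSPA8, chr11:123062137-123062386, minus strand: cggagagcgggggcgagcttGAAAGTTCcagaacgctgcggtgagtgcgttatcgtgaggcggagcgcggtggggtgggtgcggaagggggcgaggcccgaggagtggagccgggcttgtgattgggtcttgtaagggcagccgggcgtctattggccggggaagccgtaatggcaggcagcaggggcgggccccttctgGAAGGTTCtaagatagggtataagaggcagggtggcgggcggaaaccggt
The FOS window held 1 CRE core at position -64, counted back from the start site. The EGR1 window held CRE cores at -136 and -67, both on the other strand, and CArG boxes at -105 and -83. In the ASNS window shown an ATF4 element at -68 and a heat shock element at -64 overlapped, and a second ASNS start site in the table, at chr7:97872166-97872415, had none of the motifs in its window. HSPA8 held heat shock elements at -230 and -50. Over all 27305 genes with a promoter in the table, 8.62% held the CRE core, 1.44% the CArG box, 3.89% the ATF4 element and 7.05% the heat shock element. The CRE core was searched after these promoters had been seen, and a match is only a description of letters.

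With all 6 libraries, 6 genes differed between PFOS and Control at an adjusted p under 0.05, which is 0.0241% of the genes tested. FOS, EGR1, the small nuclear RNA RNVU1-25 and the unnamed gene ENSG00000287979 fell, 0.0161% of the genes tested. SLC7A11 and the long noncoding RNA DNM3OS rose, 0.00804%. The test was edgeR's quasi-likelihood test over all 21 libraries with Benjamini-Hochberg adjustment over genes, and levels are CPM, counts scaled to a common library total with TMM factors. Values of log2 fold change are PFOS minus Control throughout.

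FOS, on chromosome 14, encodes a subunit of the AP-1 transcription factor. It had 1.00, 1.20 and 1.92 CPM in the PFOS libraries, against 8.57, 7.08 and 6.85 CPM in the Control libraries. Every PFOS library lay far below every Control library. The log2 fold change was -2.49 ± 0.29 (SE), with an adjusted p of 9.09e-07 by edgeR.

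EGR1, on chromosome 5, encodes a zinc finger transcription factor that is induced by growth factors and synaptic activity. Its levels were 10.9, 16.6 and 10.2 CPM with PFOS and 45.7, 33 and 28.7 CPM in Control, so that the groups again did not overlap. EGR1 fell by 1.53 ± 0.15 on the log2 scale (edgeR adjusted p = 3.70e-08). FOS and EGR1 remained called in the fits that left out 1 of the 6 libraries in turn. In an edgeR fit of the 6 PFOS and Control libraries alone, EGR1 only just passed, with an adjusted p of 0.049. FOS had 3.91e-07 in that edgeR fit.

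SLC7A11, on chromosome 4, had 10.9, 13 and 13.3 CPM with PFOS and 4.31, 6.66 and 7.90 CPM in Control. All PFOS libraries lay above all Control libraries, and the gene rose by 0.97 ± 0.16 on the log2 scale (edgeR adjusted p = 0.00328). Without Control replicate 1 the log2 fold change was 0.76 with an adjusted p of 0.131, and without PFOS replicate 2 it was 0.93 with an adjusted p of 0.056. Reads were counted without regard to strand, and SLC7A11 overlaps the antisense gene SLC7A11-AS1, so its value is uncertain to that extent.

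The other called genes do not encode proteins or have no annotated product. DNM3OS (chr1:172138397-172144840) lies in an intron of DNM3 on the other strand and is the precursor of microRNAs of the miR-199 and miR-214 families. As reads were counted without regard to strand, DNM3OS is uncertain to that extent as well. It had 42, 38.5 and 42.3 CPM with PFOS and 25.7, 27.6 and 30.4 CPM in Control, without overlap. Its log2 fold change was 0.55 ± 0.11 (edgeR adjusted p = 0.0482). DNM3 itself, the gene for a neuronal dynamin, pointed the other way, at 43.7, 40.6 and 46.5 CPM with PFOS and 59.3, 54.9 and 48.4 CPM in Control (log2 fold change -0.31, edgeR adjusted p = 0.397). DNM3OS lost its call when any library but Control replicate 3 was left out, with adjusted p-values of 0.106 to 0.477, and with a term for the replicate number (adjusted p = 0.071).

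RNVU1-25 (chr1:146409903-146410062) is a variant copy of the U1 small nuclear RNA of the spliceosome. It had 5.94, 5.48 and 6.39 CPM with PFOS and 12.6, 15.4 and 11.8 CPM in Control, a log2 fold change of -1.16 ± 0.20 (edgeR adjusted p = 0.00328). U1 genes exist in near-identical copies and reads that map to several places were not counted, so this value is uncertain. ENSG00000287979 (chr1:120849674-120850985) had 5.17, 4.58 and 3.30 CPM with PFOS and 8.75, 8.88 and 9.09 CPM in Control (log2 fold change -1.01 ± 0.19, edgeR adjusted p = 0.0178). Neither group of values overlapped the other for these genes. Leaving out 1 library lifted the adjusted p to between 0.0753 and 0.113 in 3 cases for RNVU1-25 and to between 0.104 and 0.31 in 4 cases for ENSG00000287979.

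**Figure D1:**
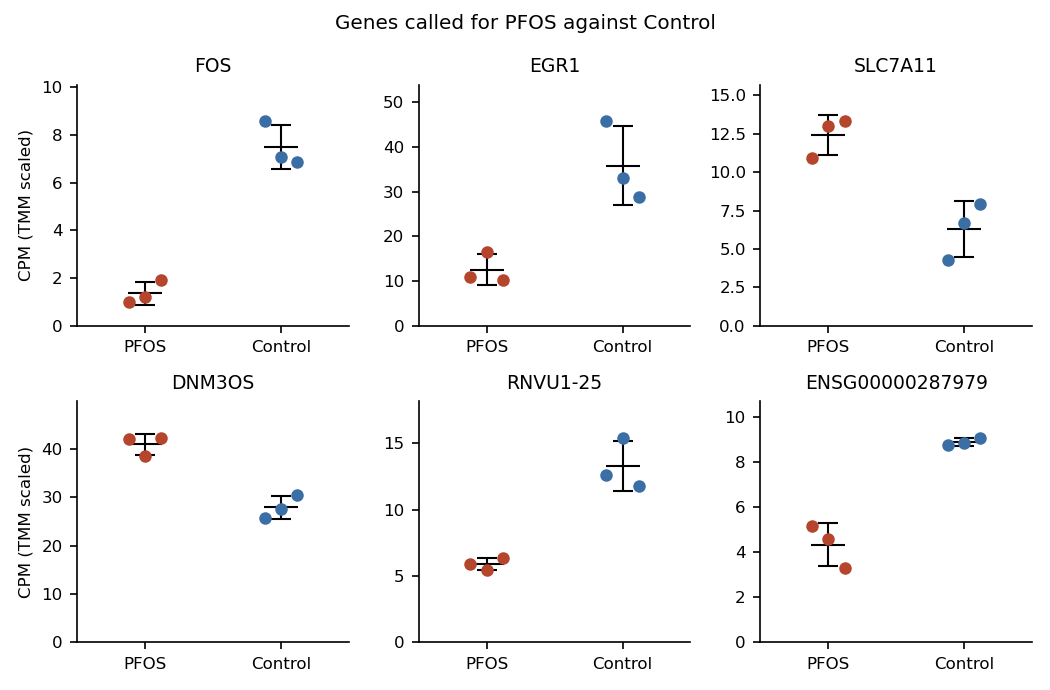
TMM-scaled CPM of the 6 called genes in each PFOS library (red, left) and each Control library (blue, right), with bars for the mean and SD of 3 libraries. In every panel the 3 PFOS values lie on 1 side of the 3 Control values, from 1.00 to 1.92 CPM against 6.85 to 8.57 CPM for FOS.

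The remaining immediate early genes did not pass the test. Of 39 listed, 31 were tested: 2 fell and none rose, against 0.0161% and 0.00804% of all genes. Of the 31, 25 had a negative log2 fold change, and the median was -0.17. Over all genes tested the median was 0.007, and 51.6% had a positive value. In 8 members all PFOS libraries lay below all Control libraries, where 7.41% of all genes did, and in 1 they lay above, where 6.62% did. Near 1 CPM, the AP-1 subunits FOSB and FOSL1 differed in sign, with log2 fold changes of -0.99 and 0.73, and EGR3 and EGR2 had -0.84 and -0.11. PLK2, a kinase that weakens overactive synapses, had 31.3, 36 and 29.8 CPM with PFOS and 45, 48.6 and 41 CPM in Control (edgeR adjusted p = 0.152). FOSL2 averaged 11.8 ± 0.797 CPM with PFOS and 16.1 ± 2.75 CPM in Control (SD, n = 3 each), and MCL1, a survival factor, averaged 255 ± 6.92 CPM with PFOS and 305 ± 5.47 CPM in Control. NR4A1, a nuclear receptor of the same early class, went against these, with 13.3, 15.8 and 13.5 CPM with PFOS and 11.3, 12.1 and 8.42 CPM in Control (edgeR adjusted p = 0.566). Of 19 tested feedback genes of the ERK kinase pathway none passed, the median was -0.04, and none was free of overlap. SPRY4, an inhibitor of that pathway, averaged 64.1 ± 3.77 CPM with PFOS and 78.1 ± 12.1 CPM in Control (SD, n = 3 each). Of the 24 tested immediate early genes with a promoter in the table, 9 held the CRE core and 3 the CArG box, or 37.5% and 12.5%, against 11.9% and 1.41% of all tested genes. The CRE core was searched after the promoters of FOS and EGR1, both among the 9, had been seen. The full CRE (TGACGTCA) was in 1 of the 24, JUND, or 4.17%, against 3.22% of all tested genes.

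No gene on the integrated stress response list passed the test, and SLC7A11 was listed with the amino acid transporters instead. Of 24 tested members 18 had a positive log2 fold change, the median was 0.22, and in 8 all PFOS libraries lay above all Control libraries, against 6.62% of all genes. TRIB3, a pseudokinase that feeds back on ATF4, had 41.5, 41.6 and 47.4 CPM with PFOS and 30.2, 32.9 and 34.2 CPM in Control (log2 fold change 0.42, edgeR adjusted p = 0.375). ASNS, which makes asparagine, had 21.1, 19.5 and 19.1 CPM with PFOS and 12.7, 13.6 and 17.8 CPM in Control (log2 fold change 0.44, edgeR adjusted p = 0.397). The groups did not overlap for either gene, although Control replicate 3 came close for ASNS. DDIT3, the stress factor CHOP, had a log2 fold change of 0.44, DDIT4 of 0.47 and CEBPB of 0.56. The summed level of the list was 1181 to 1230 CPM with PFOS and 967 to 1206 CPM in Control, so the sums overlapped. Its median was 0.13 without Control replicate 1, against 0.24 without Control replicate 3. Of 21 members with a promoter, 5 held the ATF4 element, or 23.8%, against 2.45% of all tested genes.

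Among 23 amino acid transporters tested, SLC7A11 rose and none fell, against 0.00804% and 0.0161% of all genes, with a median of 0.04. SLC7A5, the large neutral amino acid carrier, had 110, 128 and 126 CPM with PFOS and 89.4, 88.6 and 98.9 CPM in Control (log2 fold change 0.39, edgeR adjusted p = 0.156). SLC3A2, the shared heavy chain of SLC7A5 and SLC7A11, averaged 72.4 ± 0.88 CPM with PFOS and 63.4 ± 1.80 CPM in Control (SD, n = 3 each, edgeR adjusted p = 0.631). SLC43A1 had a log2 fold change of 0.37, SLC1A5 of 0.17, SLC6A9 of 0.23, SLC7A3 of 0.67 and SLC38A3 of -0.88, all with adjusted p-values of 0.728 or more in edgeR's test. Only SLC3A2, SLC7A5 and SLC43A1 among these were free of overlap besides SLC7A11. That put 4 of the 23 all above and 0 all below, against 6.62% and 7.41% of all genes.

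Enzymes that make serine and carry one-carbon units had a median of 0.12 over 23 members, with none called. PFOS libraries lay all above in 7 of them, against 6.62% of all genes, and all below in TYMS, against 7.41%. PHGDH, the first enzyme of serine synthesis, averaged 138 ± 10.1 CPM with PFOS and 112 ± 11.7 CPM in Control, and SHMT2, the mitochondrial serine hydroxymethyltransferase, averaged 69.2 ± 3.38 CPM with PFOS and 54.5 ± 5.87 CPM in Control (SD, n = 3 each). Of 20 cytosolic aminoacyl-tRNA synthetases 14 had a positive value, with a median of 0.04. CARS1, which charges cysteine tRNA, had 85.2, 84.1 and 79.5 CPM with PFOS and 65.4, 67.8 and 69.9 CPM in Control (edgeR adjusted p = 0.375).

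The NRF2, glutathione and thioredoxin genes, among which SLC7A11 is not listed, had a median of -0.03 over 44 members. Of these 5 lay all above and 3 all below, against 6.62% and 7.41% of all genes. AKR1C1, an aldo-keto reductase, had 11.0, 6.90 and 8.04 CPM with PFOS and 5.69, 5.78 and 5.52 CPM in Control (edgeR adjusted p = 0.397). PGD, an NADPH-producing enzyme of the pentose phosphate pathway, had 168, 190 and 188 CPM with PFOS and 236, 247 and 203 CPM in Control (log2 fold change -0.33, edgeR adjusted p = 0.138).

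No chaperone passed the test. Of 31 cytosolic chaperones and heat shock genes 24 had a negative value, the median was -0.15, and in 16 every PFOS library lay below every Control library, against 7.41% of all genes. HSPA8, the constitutive HSP70, had 993, 1051 and 1079 CPM with PFOS and 1294, 1493 and 1202 CPM in Control (log2 fold change -0.35, edgeR adjusted p = 0.375). HSPA1B, an inducible HSP70, had 19.4, 21 and 20.8 CPM with PFOS and 26.8, 27.9 and 27.6 CPM in Control (log2 fold change -0.43, edgeR adjusted p = 0.375). DNAJA1, an HSP40 partner, averaged 234 ± 7.56 CPM with PFOS and 287 ± 19.9 CPM in Control (SD, n = 3 each). The list's summed level was 6873 to 7387 CPM with PFOS and 7717 to 8694 CPM in Control, without overlap. Of 29 members with a promoter, 16 held a heat shock element, or 55.2%, against 5.98% of all tested genes.

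In the endoplasmic reticulum, chaperones and genes of the unfolded protein response had a median of -0.09 over 33 members. Of these 9 lay all below and 1 all above, where 7.41% and 6.62% of all genes did. MANF, a secreted protein released under such stress, had 45.2, 49.0 and 52.9 CPM with PFOS and 78.3, 74.1 and 59.1 CPM in Control (log2 fold change -0.53, edgeR adjusted p = 0.138). PDIA3, a disulfide isomerase, had 202, 217 and 227 CPM with PFOS and 270, 282 and 265 CPM in Control (log2 fold change -0.34, edgeR adjusted p = 0.199). HSP90B1 averaged 398 ± 8.74 CPM with PFOS and 477 ± 26.1 CPM in Control (SD, n = 3 each). Both PDIA3 and HSP90B1 overlap other genes on the opposite strand.

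Cholesterol genes had a median of -0.18 over 35 members, of which 28 were negative and none was called. PFOS libraries lay all below in 13 and all above in 0, against 7.41% and 6.62% of all genes. SQLE, which makes squalene epoxide, had 189, 202 and 213 CPM with PFOS and 231, 250 and 236 CPM in Control (log2 fold change -0.25, edgeR adjusted p = 0.393). ACAT2, at the entry of the pathway, averaged 81.3 ± 3.19 CPM with PFOS and 103 ± 11.3 CPM in Control (SD, n = 3 each), and overlaps TCP1 on the other strand. HMGCS1, which acts early in the pathway, had a log2 fold change of -0.27. Fatty acid synthesis and desaturation had a median of -0.09 over 29 members, with 11 all below and 2 all above beside the same 7.41% and 6.62%. ELOVL5, an elongase, averaged 159 ± 7.05 CPM with PFOS and 189 ± 6.59 CPM in Control, and FADS3 averaged 25.3 ± 0.757 CPM with PFOS and 20.2 ± 1.52 CPM in Control (SD, n = 3 each). PPAR receptors with their targets, the nuclear receptor pathway through which PFOS is known to act in rodent liver, had a median of 0.01 over 46 tested members. Its 4 members all above and 3 all below stand beside 6.62% and 7.41% of all genes.

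Genes of glycolysis and hypoxia had a positive value in 29 of 37 members and a median of 0.09, with none called. Their 3 members all above and 1 all below stand beside 6.62% and 7.41% of all genes. VEGFA, the angiogenic factor, had 146, 138 and 124 CPM with PFOS and 93.4, 109 and 111 CPM in Control (log2 fold change 0.38 ± 0.08 SE, edgeR adjusted p = 0.0565). SLC2A1, the glucose carrier GLUT1, averaged 72.2 ± 4.77 CPM with PFOS and 57.8 ± 7.74 CPM in Control (SD, n = 3 each).

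All 13 mitochondrially encoded protein genes had a negative value, with a median of -0.29, and 11 lay all below, where 7.41% of all genes did. None was called in the fit over all 21 libraries. A fit of the 6 PFOS and Control libraries alone called 6 of them lower, against 0.123% of all genes in that fit. MT-CYB, of respiratory complex III, had 2601, 2532 and 2751 CPM with PFOS and 3090, 3258 and 3227 CPM in Control (log2 fold change -0.28, edgeR adjusted p = 0.708). Their summed level was 36472 to 39282 CPM with PFOS and 41008 to 45892 CPM in Control. The 61 nuclear genes of the respiratory chain had a median of -0.03.

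Genes of the neuronal cytoskeleton and neurite growth were negative in 37 of 40 members, with a median of -0.11. In 17 the PFOS libraries lay all below and in 0 all above, against 7.41% and 6.62% of all genes. GAP43, a protein of growing axons, had 228, 251 and 246 CPM with PFOS and 304, 302 and 293 CPM in Control (log2 fold change -0.31, edgeR adjusted p = 0.375). NEFM, a neurofilament, averaged 145 ± 4.03 CPM with PFOS and 186 ± 11.8 CPM in Control, and MAP1B averaged 4510 ± 239 CPM with PFOS and 5404 ± 104 CPM in Control (SD, n = 3 each). Cell cycle genes were negative in 46 of 51 members, with a median of -0.13 and 12 all below, against the same 7.41%. MKI67, a proliferation marker, had 662, 717 and 732 CPM with PFOS and 876, 874 and 819 CPM in Control (edgeR adjusted p = 0.375). In bulk RNA, fewer cells of a type and less RNA per cell cannot be told apart.

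These medians stand beside a tilt with level. Genes at 100 CPM or more in the higher group had a median of -0.046 and 30.6% of the 2598 were positive, while 58.6% of the 9082 genes at 1 to 10 CPM were positive, with a median of 0.065. Scaling by library size alone moved the median of all genes to 0.051 and the heat shock median to -0.11, the cholesterol median to -0.14 and the mitochondrial median to -0.24. The median of the NRF2 list then was 0.01, on the other side of 0. The counts of genes without overlap stand beside 7.41% and 6.62% of genes of all levels. Intervals were narrower at high levels. They reached a median of 0.16 to either side at 100 CPM or more, against 0.62 at 1 to 10 CPM. The part of level in the list medians and in the counts without overlap was not tested.

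**Figure D2:**
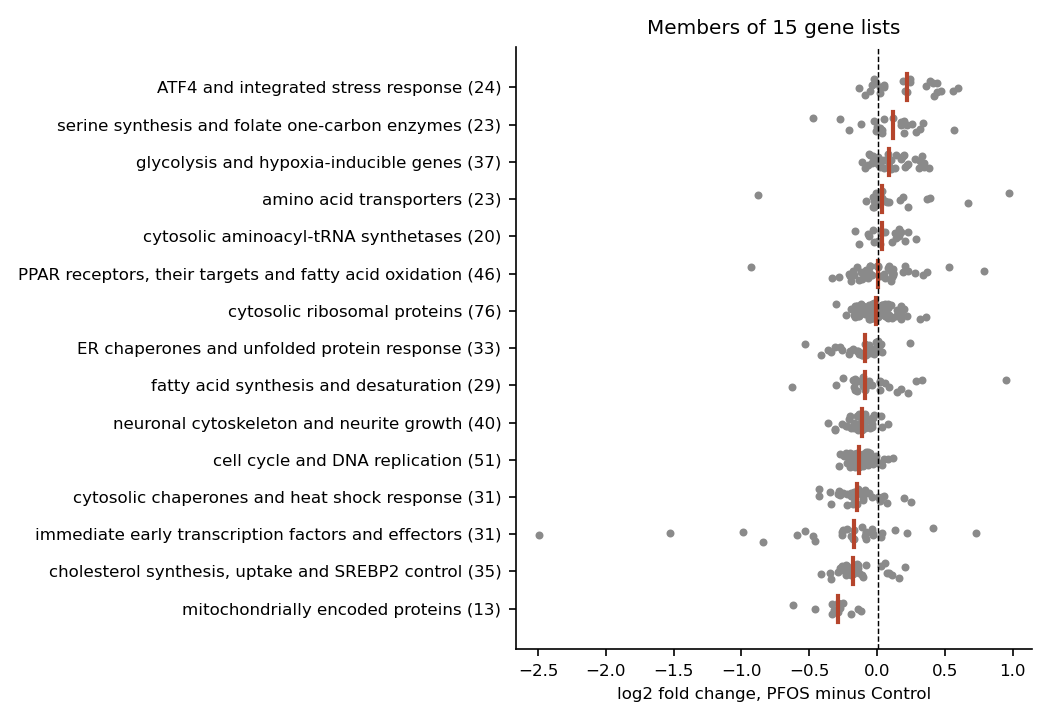
Log2 fold change, PFOS minus Control, of each tested member of 15 gene lists (grey points, number of members in brackets), with the list median as a red bar and the median of all tested genes as a dashed line at 0.007. The stress response median sits at 0.22 and the mitochondrial one at -0.29, and FOS and EGR1 are the points at -2.49 and -1.53.

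Further genes were named for a small p or as members of lists not described above. PKHD1 had 10.0, 9.53 and 11.0 CPM with PFOS and 7.28, 5.45 and 6.28 CPM in Control (edgeR adjusted p = 0.233). PZP, a protease inhibitor, averaged 21.5 ± 1.79 CPM with PFOS and 14.6 ± 1.82 CPM in Control, and TSPEAR, which overlaps antisense genes, averaged 22.9 ± 4.95 CPM with PFOS and 13.2 ± 3.90 CPM in Control (SD, n = 3 each). PPID, a cyclophilin that joins HSP90 complexes, had 32.4, 30.7 and 30.9 CPM with PFOS and 41, 44.6 and 41.2 CPM in Control (edgeR adjusted p = 0.138). NIM1K, a protein kinase gene, had 0.872, 0.375 and 0.825 CPM with PFOS and 2.27, 2.14 and 2.24 CPM in Control (edgeR adjusted p = 0.246). ZNF440, a zinc finger gene, averaged 20.2 ± 1.46 CPM with PFOS and 27.3 ± 2.60 CPM in Control. MAOB, which degrades monoamines, had 26.7, 25 and 27.3 CPM with PFOS and 39.2, 35.7 and 35.2 CPM in Control (edgeR adjusted p = 0.346). TIMP1, a metalloproteinase inhibitor, had 3.29, 2.70 and 2.75 CPM with PFOS and 6.22, 5.24 and 5.42 CPM in Control (edgeR adjusted p = 0.375). None of these genes passed the test. In each the groups did not overlap, which was a condition for those named for a small p, all but TIMP1.

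Several of these genes passed in other tests. DESeq2's test called 10 rises and 9 falls, 0.0402% and 0.0362% of the genes tested, and the fit of the 6 libraries alone called 18 rises and 30 falls, 0.0739% and 0.123%. Both held all 6 genes named first. VEGFA, MIR137HG and RNY3P1 rose and MANF, PGD and PPID fell in both tests. The adjusted p of VEGFA was 0.0169 with DESeq2 and 0.0163 in the fit of the 6 libraries by edgeR. TRIB3, SLC7A5, HSPA8, PDIA3, PLK2, GAP43, NEFM and MAOB passed in the fit of the 6 libraries and not with DESeq2, as did PZP and NIM1K, while PKHD1 passed with DESeq2 (adjusted p = 0.0391) and not in that fit.

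Control replicate 3 stood apart from the other PFOS and Control libraries, and the count of calls differed with and without it. Mitochondrial ribosomal RNA took 0.002% to 0.008% of counts in the PFOS libraries, against 0.003%, 0.005% and 1.956% in Control replicates 1, 2 and 3. In 8:2 FTOH replicate 3, which is part of the fit over all 21 libraries, it took 2.901%. The 8 genes with a log2 fold change beyond 3 in either direction were all lower with PFOS. Among the PFOS and Control libraries, they had their highest level in Control replicate 3. MT-RNR2, the large mitochondrial ribosomal RNA, had 32.2, 56.9 and 14.4 CPM with PFOS and 16.7, 33.2 and 14951 CPM in Control (edgeR adjusted p = 0.688). Mitochondrial protein genes took 3.584% to 3.906% of counts in the PFOS libraries, against 4.109%, 4.338% and 4.348% in Control replicates 1, 2 and 3. Total counts were 30429746, 13563381 and 14633793 in the PFOS libraries and 22472000, 24905803 and 22179910 in the Control libraries.

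**Figure D3:**
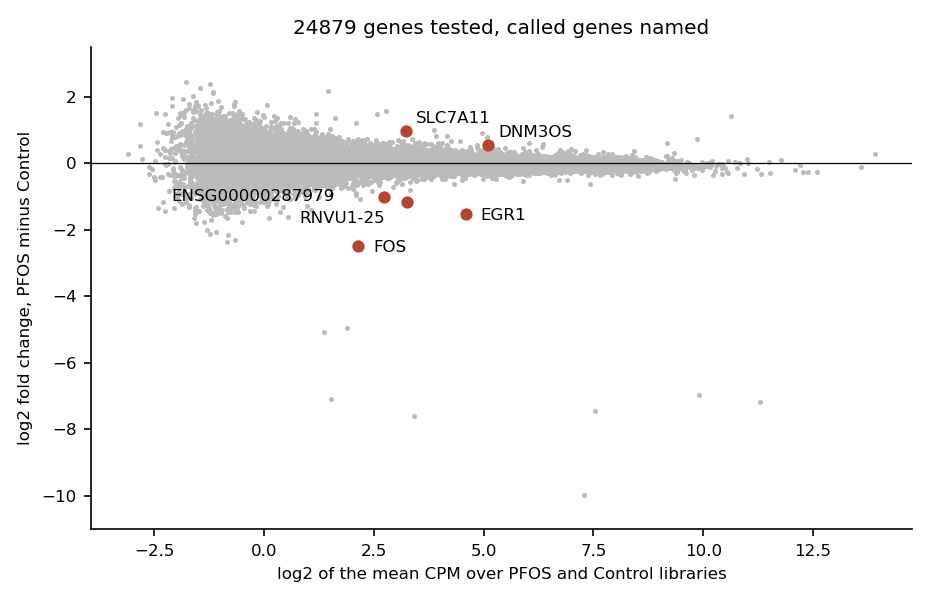
Log2 fold change, PFOS minus Control, of each tested gene against the log2 of its mean CPM over both groups, with the 6 called genes in red. FOS lies lowest of the called genes at -2.49, and the 8 points under -3 are the genes whose highest level was in Control replicate 3.

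Without Control replicate 3, edgeR's test called 24 genes, 17 that rose (0.0663% of the genes then tested) and 7 that fell (0.0273%). These held all 6 genes called with it and 18 more, of which 15 rose and 3 fell. For 7 of the 18 the groups overlapped once that library was counted. A gene that gains its call without a library will often have that library nearest to the other group. The place of Control replicate 3 in the genes below therefore follows in part from how they were picked.

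Of the 37 glycolysis and hypoxia genes, 3 rose without Control replicate 3 (BNIP3, PDK1 and VEGFA), against 0.0663% of all genes. BNIP3, a receptor for the removal of mitochondria, had 119, 112 and 118 CPM with PFOS and 70.2, 87.0 and 118 CPM in Control (log2 fold change 0.57 without Control replicate 3 and 0.35 with it). PDK1, a kinase that inhibits pyruvate dehydrogenase, had 130, 122 and 117 CPM with PFOS and 67.7, 99.3 and 123 CPM in Control (log2 fold change 0.56 without Control replicate 3 and 0.35 with it). For both, the third control lay inside the PFOS range. VEGFA rose by 0.43 without that library.

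Of the 24 stress response genes STC2 rose without that library, and of the 23 serine and one-carbon genes MTHFD2, against 0.0663% of all genes. STC2, a secreted glycoprotein, had 21.7, 18.8 and 19.9 CPM with PFOS and 8.44, 14.3 and 17.2 CPM in Control (log2 fold change 0.83 without Control replicate 3 and 0.60 with it). MTHFD2, a mitochondrial folate enzyme, had 125, 129 and 125 CPM with PFOS and 80.9, 102 and 120 CPM in Control (log2 fold change 0.46 without Control replicate 3 and 0.32 with it). In both genes the third control was the highest of its group and still under every PFOS library.

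Among the falls, MANF had a log2 fold change of -0.64 without Control replicate 3, against -0.53 with it, and PGD of -0.41, against -0.33. TBX3, a transcription factor of noradrenergic cells, had 160, 166 and 166 CPM with PFOS and 233, 202 and 176 CPM in Control (log2 fold change -0.41 without Control replicate 3 and -0.31 with it), and overlaps TBX3-AS1. In these 3 genes Control replicate 3 was the lowest control and the one nearest to PFOS, a position that their selection favours.

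Several noncoding genes rose without Control replicate 3. RNU5D-1, a U5 small nuclear RNA, had 12.3, 14.9 and 14.6 CPM with PFOS and 2.58, 4.44 and 20.1 CPM in Control, where the third control exceeded all PFOS libraries. RNY3P1, a Y RNA pseudogene, had 4.42, 5.40 and 3.51 CPM with PFOS and 1.02, 1.47 and 2.71 CPM in Control. TSPEAR-AS1 averaged 40.8 ± 5.97 CPM with PFOS and 21.8 ± 7.56 CPM in Control, and ENSG00000248458 averaged 10.6 ± 0.497 CPM with PFOS and 6.80 ± 2.03 CPM in Control (SD, n = 3 each). ENSG00000259865 had 11.4, 10.9 and 10.5 CPM with PFOS and 6.48, 3.69 and 10.6 CPM in Control. MIR137HG, the host of miR-137, had 407, 370 and 388 CPM with PFOS and 283, 295 and 323 CPM in Control (edgeR adjusted p = 0.0565 with all libraries). It was named after its values were seen, as were PDK1, TMEM106B, CNTN1, MZT1 and ENSG00000232821, an antisense neighbour of TWIST1. Library shares of small RNAs were 2.236% to 2.977% with PFOS and 1.592% to 2.431% in Control, and their part in these values was not tested.

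**Figure D4:**
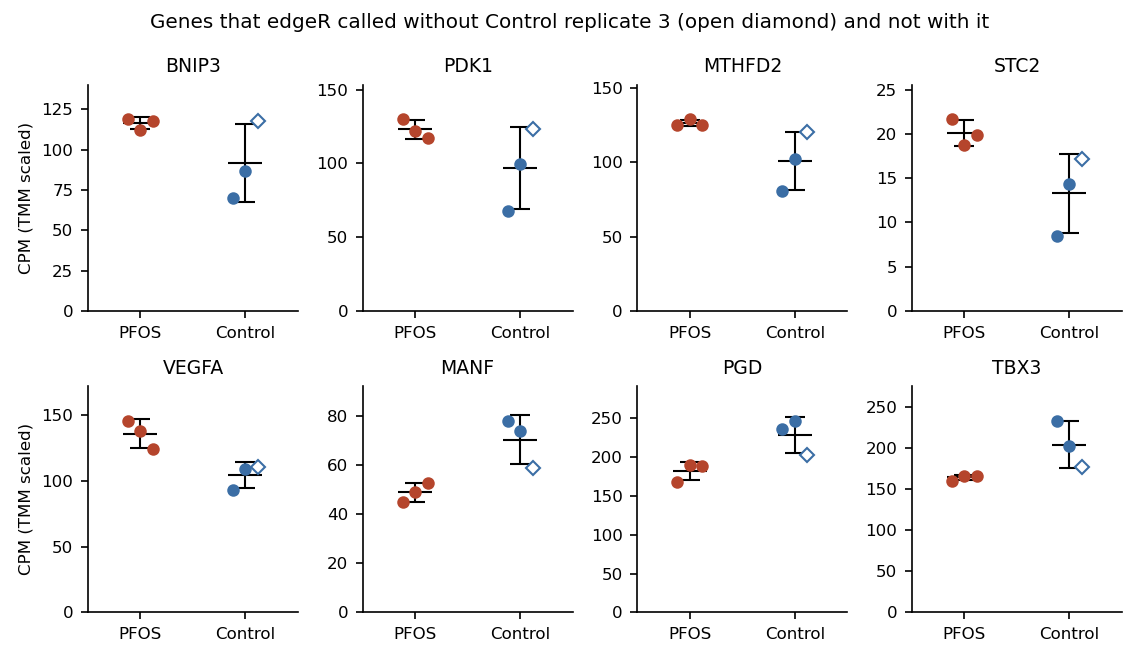
TMM-scaled CPM of 8 genes in each PFOS library (red, left) and each Control library (blue, right), with Control replicate 3 as an open diamond and bars for the mean and SD of 3 libraries. For BNIP3 the diamond is at 118 CPM, level with PFOS at 112 to 119 CPM, and for TBX3 it is the lowest control at 176 CPM.

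The cells carried the markers of their label. ELAVL3, ELAVL4, STMN2, MAP2, GATA3 and DBH, genes of neurons and of the noradrenergic lineage, had means of 281 CPM or more in both groups. TH, the first enzyme of catecholamine synthesis, was at 0.874 CPM with PFOS and 0.592 CPM in Control, and the mature neuron marker RBFOX3 at 1.76 CPM with PFOS and 1.68 CPM in Control. Neuron markers had a median log2 fold change of -0.12, with 5 of 12 all below against 7.41% of all genes, and noradrenergic identity genes 0.02. Of 19 epithelial, endothelial and blood markers, 17 were under 1 CPM in both groups and 5 had no count. Of 13 glial markers 4 were under 1 CPM, FOXD3 and OLIG2 had no count, and the summed level of those tested was 216 to 232 CPM with PFOS and 186 to 248 CPM in Control. Of 25 mesenchymal markers only 5 were under 1 CPM in both groups, with PRRX1 and IFI16 at 0. TWIST1 averaged 294 CPM with PFOS and 291 CPM in Control, and NOTCH2 125 CPM and 122 CPM. The mesenchymal markers tested summed to 740 to 773 CPM with PFOS and 714 to 775 CPM in Control.

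PFOS was then set against 3 compounds at the same dose and time, with p-values adjusted over all genes of the 3 comparisons. PFOA has a carboxylic acid in place of the sulfonic acid, PFDS has the same sulfonic acid on a longer chain, and 8:2 FTS is a fluorotelomer sulfonic acid. edgeR's test called 0 genes for PFOS against PFOA, PFDS or 8:2 FTS, or 0.0% of the genes tested. The counts at an unadjusted p under 0.05 were 1220, 1087 and 712 of 24879 genes in that order. Each is under the share of 0.05 that is expected where no gene differs. DESeq2's test called 0, 1 and 0 genes in the same order. At 1 CPM or more the 95% interval of a log2 fold change reached a median of 0.31 to either side in each comparison, and 84.3% to 85.3% of genes had an interval within 2-fold either way.

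FOS gave the lowest adjusted p, for PFOS against PFDS. It had 1.38 ± 0.486 CPM with PFOS and 4.45 ± 1.15 CPM with PFDS (SD, n = 3 each). The log2 fold change was -1.72, with a 95% interval of -2.33 to -1.11 and an adjusted p of 0.0758 by edgeR, and DESeq2 called it with an adjusted p of 0.00193. Against PFOA the FOS difference was -0.70 (interval -1.35 to -0.05) and against 8:2 FTS -0.20 (interval -0.88 to 0.49), both with an edgeR adjusted p of 1.0. EGR1 differed by -0.31 from PFOA (interval -0.63 to 0.01), by -0.50 from PFDS (-0.82 to -0.19) and by -0.23 from 8:2 FTS (-0.55 to 0.09). SLC7A11 differed by 0.39 from PFOA (0.06 to 0.72), by 0.26 from PFDS (-0.07 to 0.59) and by -0.05 from 8:2 FTS (-0.38 to 0.27). These misses do not show that the compounds act alike.

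Levels of the called genes in the other groups are given side by side, since all comparisons share the controls. FOS averaged 1.38 CPM with PFOS, 1.56 with 8:2 FTS, 2.20 with PFOA, 2.67 with 8:2 FTOH, 2.71 with PFDA, 4.45 with PFDS and 7.50 in Control. EGR1 averaged 12.6 CPM with PFOS, 14.6 with 8:2 FTS, 15.4 with PFOA, 15.6 with PFDA, 17.5 with PFDS, 23.3 with 8:2 FTOH and 35.8 in Control. SLC7A11 averaged 12.4 CPM with PFOS, 17.5 with 8:2 FTOH, 12.7 with 8:2 FTS, 10.8 with PFDA, 10.3 with PFDS, 9.37 with PFOA and 6.29 in Control. PFOS thus had the lowest mean of FOS and of EGR1 in the series, but its range met those of several compounds. For FOS it was 1.00 to 1.92 CPM with PFOS, against 1.25 to 1.88 CPM with 8:2 FTS, 1.5 to 3.39 CPM with PFDA and 1.67 to 2.54 CPM with PFOA. For EGR1 it was 10.2 to 16.6 CPM with PFOS, against 14.2 to 15.3 CPM with 8:2 FTS, 13.4 to 16.5 CPM with PFOA, 13.9 to 17.3 CPM with PFDA and 16.3 to 19.3 CPM with PFDS. DNM3OS averaged 40.9 CPM with PFOS and 33.1 to 39.1 CPM with the other compounds.

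**Figure D5:**
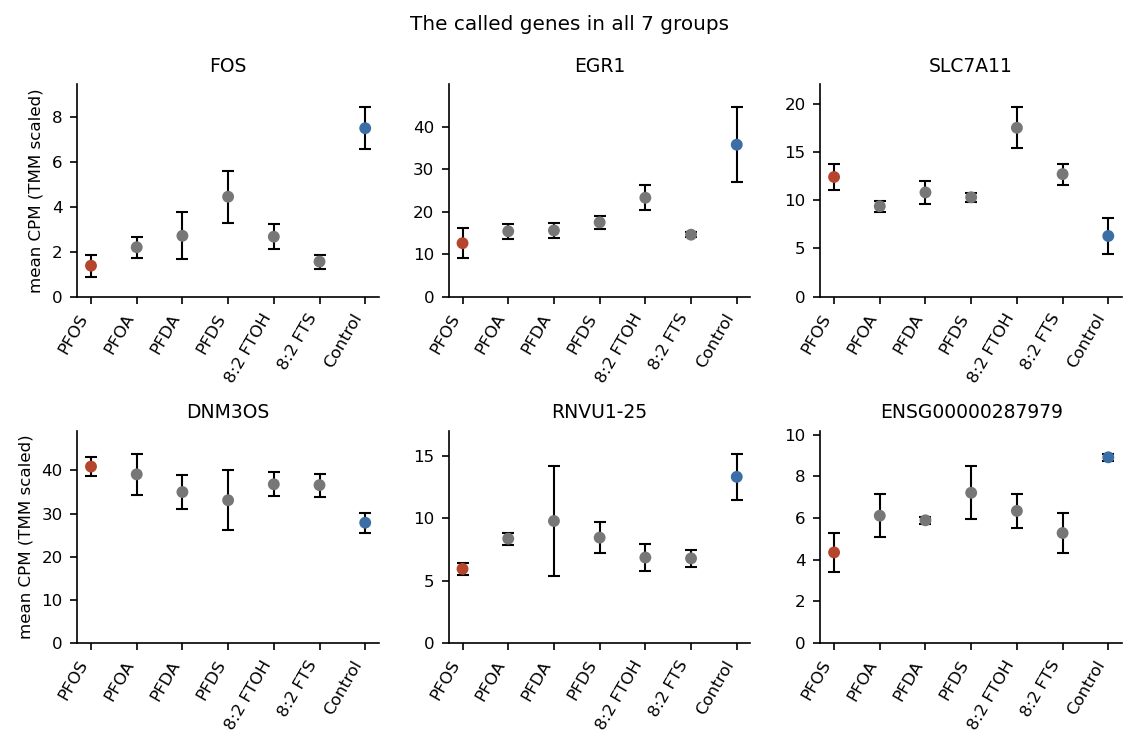
Mean TMM-scaled CPM with SD of 3 libraries for the 6 called genes in PFOS (red), the 5 other compounds (grey) and Control (blue). Control is the highest group for FOS (7.50 CPM), EGR1, RNVU1-25 and ENSG00000287979 and the lowest for SLC7A11 (6.29 CPM) and DNM3OS.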

How the data were processed

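Ribosome-depleted total RNA of SH-SY5Y cells was sequenced. Per the submitters' processing notes, the authors used FastQC, MultiQC, HISAT2, SAMtools, featureCounts and DESeq2, with the build hg38. Version 2.0.1 of featureCounts stands in the deposited count table, per the file headers, which show no strand option although the kit was stranded. The authors deposited raw counts per gene for 21 libraries. Their second deposited table holds normalized values (signal) for 19 libraries and lacks 8:2 FTOH replicate 3 and Control replicate 3. Its values were counts divided by 1 factor per library: 100% came back as whole reads within 0.01, and the edgeR test on those reads called 27 genes.

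The raw counts were filtered with filterByExpr, scaled with TMM and fitted with edgeR 4.0.16 in R 4.3.3 (quasi-likelihood, robust, group as the only term, all 21 libraries), and called at an adjusted p under 0.05. SE and 95% intervals came from the F statistic. Over genes at 1 CPM or more the PFOS interval reached a median of 0.30 to either side, against 1.16 for genes under 1 CPM. Alternatives included DESeq2 1.42.0. The test was checked on simulated counts with the same spread for every gene and with larger planted changes than most described here. The simulation did not cover smaller changes or a library that stands apart.

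The members, the gene lists and the alternatives were chosen with earlier results of these data known. Named genes were those called with or without Control replicate 3 (of the latter the 6 largest rises and falls), the 3 members of each list with the smallest p (8 where a member was called), and 6 rises and 6 falls of smallest p without overlap of the groups. Not all of them are described. Promoters were taken from RefSeq (GRCh38.p14). SLC7A11 was not matched there.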

Additional observations from a re-analysis of the deposited data

How the results depend on the processing

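The 6 calls for PFOS against Control were 6 with DESeq2 size factors, 8 with the stricter filter and 9 with library size scaling, and held the 6 genes in each. The count was 19 with DESeq2's test, 48 in a fit of both groups only and 52 without a filter on low counts. It was 27 without the libraries absent from the authors' table and 27 on the reads recovered from that table, an alternative chosen after seeing the data. Leaving out 1 library gave 2 to 24 calls: 2 without PFOS replicate 2, 3 without Control replicate 1, 3 without Control replicate 2 and 24 without Control replicate 3. With the replicate number as a block 5 were called, without DNM3OS. The labels do not tie the numbers to shared cultures. Deviations of same-numbered PFOS and Control libraries had correlations of 0.11, 0.06 and 0.01, against -0.07 to 0.02 for the other pairs. Whether same-numbered libraries shared a culture or day was not tested. Against the other compounds, the 0 calls became 8 for PFOA, 6 for PFDS and 20 for 8:2 FTS in a fit of both groups only, 14 for PFDS and 4 for 8:2 FTS without a filter, and 1 for PFDS with DESeq2's test. Leaving out 1 library gave 0 to 2 calls for PFDS and 0 for PFOA and 8:2 FTS. EPCAM (log2 fold change -0.06) changed sign to 0.23 without Control replicate 3, with or without 8:2 FTOH replicate 3 and on recovered reads, and ran from -0.32 to 0.23 over the fits that left out 1 library. VWF (-0.04) came to 0.0 with library size scaling and ran from -0.2 to 0.13 over the fits that left out 1 library. The causes were not tested. Depth limits genes under 1 CPM, of which 3.1% had an interval within 2-fold either way.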
